A study of Mus musculus with 3 samples.

Results

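Intermediate filament and nuclear lamin genes were followed in cardiac myofibroblasts that were attached to plastic, held in suspension and attached again. The 10 genes were Vim, Des, Nes, Synm, Krt7, Krt8, Krt18, Krt19, Lmna and Lmnb1, out of 15393 genes measured. They were chosen by name, and each was found through the RefSeq transcript that the array gives for its probe. Cardiac myofibroblasts are activated fibroblasts that contract and lay down matrix in a damaged heart. The cells came from hearts of male C57BL/6J mice in which the left anterior descending coronary artery had been tied off for good 3 days earlier. The labels give the age as 8 weeks for the samples and 10 weeks for the operation. Digested heart cells that attached to plastic overnight were depleted of cells carrying CD45, a leukocyte surface protein, so all 3 groups share the infarct, the overnight attachment and the depletion. Adherent cells were grown on plastic plates, non-adherent cells had then been moved into suspension, and re-adherent cells had been returned from suspension to plates. Each state was collected after the one before it, so state and total time in culture cannot be told apart. Each state had 1 array of RNA mixed from several hearts, so no spread between animals or cultures could be computed and no p-value is given.

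Intermediate filaments are rope-like polymers of coiled-coil proteins that give cells and nuclei mechanical strength. Vimentin (Vim) and desmin (Des) are type III proteins of mesenchymal and muscle cells, nestin (Nes) and synemin (Synm) are type IV proteins that copolymerise with them, and keratins pair an acidic chain (Krt18, Krt19) with a basic chain (Krt7, Krt8). Keratins mark epithelia, among them the mesothelium that covers the heart as epicardium. Lamins A and C (both from Lmna) and lamin B1 (Lmnb1) form the meshwork under the inner nuclear membrane. Lamin A is known to increase with the stiffness of tissues, while lamin B1 is known to decline in senescent cells.

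All 10 genes were lower in suspension than in adherent cells, and all 10 were higher again once the cells had re-attached. The lowest log2 difference in suspension was that of Nes (-2.59), followed by Krt19 (-2.27) and Des (-2.17). After re-adhesion, 3 keratins stood more than 2-fold above their first adherent level, namely Krt18 (3.07-fold), Krt8 (2.65-fold) and Krt19 (2.01-fold). Vim, Des, Nes and Lmna lay above it by less, with log2 differences from 0.42 to 0.67. Lmnb1, Krt7 and Synm stayed below the adherent level, Synm by less than its technical error, with log2 differences of -0.42, -0.29 and -0.09. The differences are on the log2 scale after each array was scaled to its 75th percentile, and the technical error that the scanner software attaches to a difference was 0.20 for the median gene of each pair. This error covers noise within the arrays only. It had the same value, 0.204, for Vim and for Lmna in every pair. For bright genes it is thus a constant of the software and not a spread measured between spots.

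**Figure D1:**
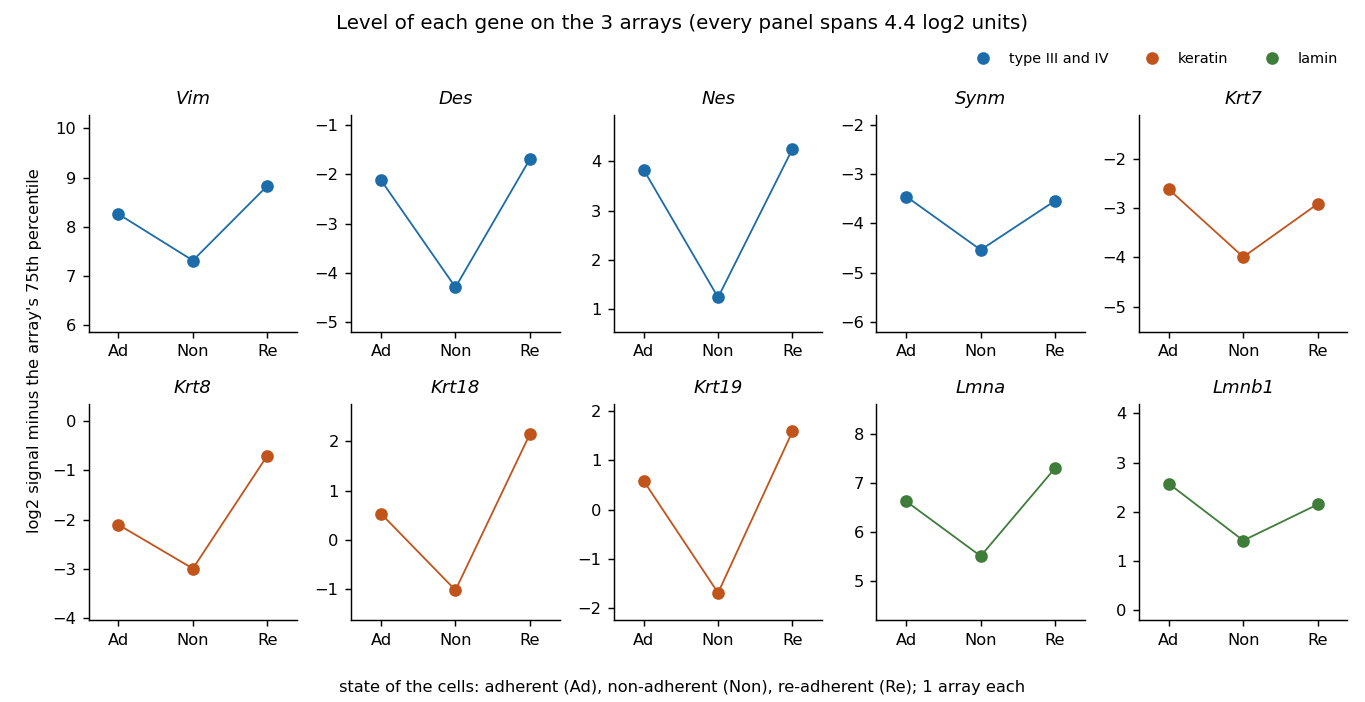
Level of each of the 10 genes in each state (Ad, adherent; Non, suspension; Re, re-attached), as log2 signal minus the array's 75th percentile; each point is 1 array, each panel has its own axis of the same span, and levels cannot be set against each other between panels because every probe binds with its own strength. The non-adherent point is the lowest in all 10 panels, and Krt8, Krt18 and Krt19 end the farthest above where they began.

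Against the adherent array, 8 of the 10 genes were more than 2-fold lower in suspension and 0 were more than 2-fold higher. Of all genes measured, 14.7% were more than 2-fold lower and 17.2% more than 2-fold higher. The count of 8 was 6 after quantile normalization or normexp background correction, 7 without scaling or in the authors' values, and 10 with scaling to spike-in probes. Lmna (-0.84) lost the call under quantile normalization, Krt7 (-0.74) under normexp and Synm in all 4 of the settings with lower counts. On re-adhesion, 8 of the 10 were more than 2-fold higher than in suspension and 0 lower, where 15.5% of all genes were higher and 16.4% lower by that margin. This count lay between 7 and 9 under the other settings at 2-fold. Between the re-adherent and adherent arrays 3 of the 10 were more than 2-fold higher and 0 lower, against 4.82% higher and 4.94% lower among all genes. The median over the 10 genes was -1.26 in suspension, 2.04 on re-adhesion and 0.50 for re-adherent against adherent cells. The medians over all genes were -0.07, 0.07 and 0.06 in the same order. The genes were chosen with earlier results of these data known, so these counts describe the 10 genes and test nothing.

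**Figure D2:**
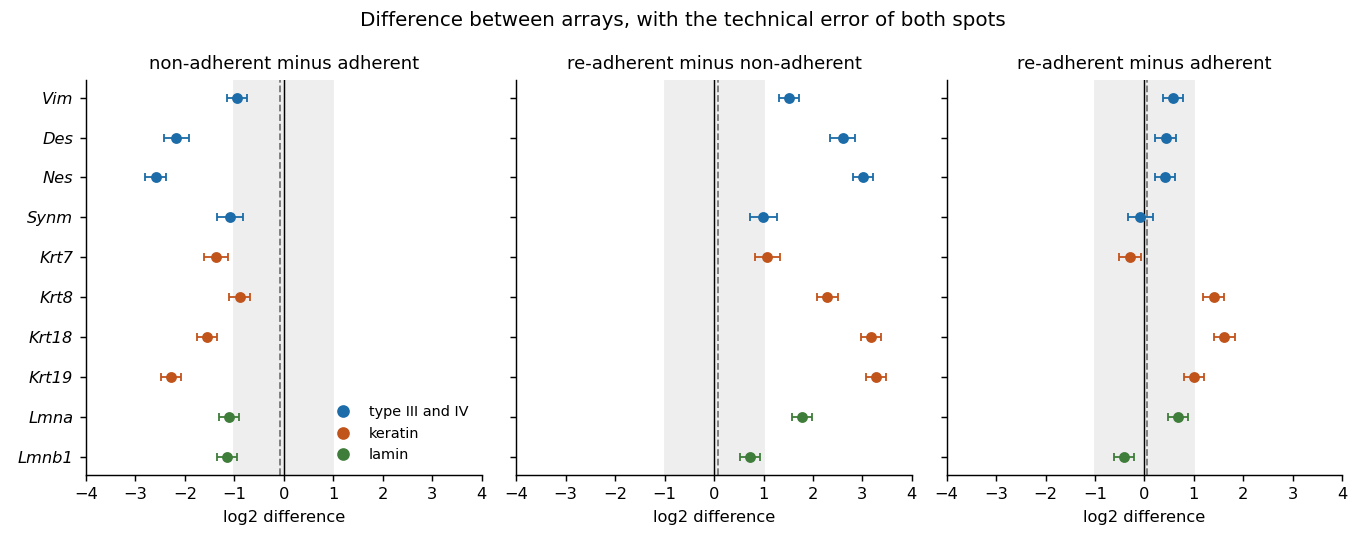
Log2 difference of each of the 10 genes for non-adherent minus adherent, re-adherent minus non-adherent and re-adherent minus adherent, with bars for the technical error that the scanner software gives both spots combined (1 array per state); the dashed line is the median of all genes and the grey band covers differences under 2-fold. Every point lies below 0 in the first panel and above 0 in the second, and Krt8, Krt18 and Krt19 lie at or past the right edge of the band in the third.

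These are bulk samples, in which fewer cells of a type and less RNA per cell cannot be told apart. The summed level of 8 myofibroblast markers was 2489 times the 75th percentile in adherent cells, 542 times in suspension and 2372 times after re-adhesion. Of the 8 markers, 5 were more than 2-fold lower in suspension (14.7% of all genes were), among them the contractile genes Acta2 (-6.63), Tagln (-5.98) and Myl9 (-6.80). The matrix gene Fn1 (-1.16) was also among the 5, while the matrix genes Postn (-0.12), Col1a1 (-0.70) and Col3a1 (0.19) were not. Of 13 macrophage and leukocyte markers 12 were measured (Cd68 was not), with a summed level of 187, 1137 and 392. Of the 12, 11 were more than 2-fold higher in suspension, against 17.2% of all genes. Ptprc, which encodes CD45, was 2.68 higher in suspension and Adgre1 3.16 higher. The part that the cells with these markers had in the differences of the 10 genes was not tested.

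The keratin genes are shown first because they parted from each other after re-adhesion. Krt8 and Krt18, which encode the chains of 1 keratin pair, are neighbours on chromosome 15 with 0 other coding genes starting between them, and Krt7 lies on the same chromosome. The 250 bases before the start of these 3 genes are printed to set the pair whose levels ended above the adherent array beside the gene whose level did not. They were taken from RefSeq on GRCm38.p6, run 5′ to 3′ along the gene, and capitals mark SP1 boxes (GGGCGG, or CCGCCC where the box is on the other strand). The Krt7 sequence is chr15:101412153-101412402 on the plus strand, that of Krt8 is chr15:102004343-102004592 on the minus strand, and that of Krt18 is chr15:102027966-102028215 on the plus strand.

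Krt7: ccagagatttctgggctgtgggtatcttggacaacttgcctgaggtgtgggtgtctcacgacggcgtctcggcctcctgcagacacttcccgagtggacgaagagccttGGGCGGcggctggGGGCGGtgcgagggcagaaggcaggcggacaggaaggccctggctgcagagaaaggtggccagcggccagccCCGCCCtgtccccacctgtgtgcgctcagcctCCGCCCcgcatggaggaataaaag
Krt8: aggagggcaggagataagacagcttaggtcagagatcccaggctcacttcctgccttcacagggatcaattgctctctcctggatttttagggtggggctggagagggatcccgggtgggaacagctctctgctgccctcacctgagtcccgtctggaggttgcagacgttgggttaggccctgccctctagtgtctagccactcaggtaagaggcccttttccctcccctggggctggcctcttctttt
Krt18: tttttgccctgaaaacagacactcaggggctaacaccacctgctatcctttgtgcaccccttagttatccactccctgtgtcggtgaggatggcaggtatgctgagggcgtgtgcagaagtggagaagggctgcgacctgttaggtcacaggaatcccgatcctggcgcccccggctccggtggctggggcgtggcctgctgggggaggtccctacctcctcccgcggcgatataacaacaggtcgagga

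The Krt7 window held 4 SP1 boxes, and those of Krt8 and Krt18 held 0. Among all 32851 promoters of the table, 32.7% held an SP1 box within the same 250 bases. Of the 8 genes with a promoter in the table (all but Krt19 and Lmnb1), Des, Krt7, Lmna and Nes had at least 1 SP1 box. Unlike Krt7, the genes Des, Lmna and Nes ended above the adherent level under the main scaling. The part of these boxes in the differences was not tested. Searches of both strands from 250 bases before to 50 after the start found no CArG box (CC, 6 bases of A or T, GG), no TEAD motif (GGAATG) and no E2F motif (TTTGGCGC) in any of the 8. These occurred in 1.63%, 14.7% and 0.514% of all promoters. The AP-1 motif (TGACTCA or TGAGTCA), found in 5.20% of all promoters, was present in that of Lmna, from position 40 on, counted from 1 at the start. A match here is a run of letters and not a bound site.

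Krt18, the acidic partner of Krt8, gave a processed signal of 935 intensity units in adherent cells, 341 in suspension and 2392 after re-adhesion, and signals of the other genes follow in that order of states. The signal on the re-adherent array was the highest and that in suspension the lowest. After scaling, the log2 difference was -1.55 ± 0.20 (technical error) in suspension, 3.17 ± 0.20 on re-adhesion and 1.62 ± 0.20 for re-adherent against adherent cells. In that last comparison only 1.90% of genes measured stood higher. Krt8, the basic partner, gave 150, 86.8 and 332 units, with the same order of heights. Its differences were -0.89 ± 0.22, 2.29 ± 0.21 and 1.40 ± 0.21, and 2.51% of genes stood higher than Krt8 in re-adherent against adherent cells.

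Krt19, a small acidic keratin without a tail domain, gave 969, 215 and 1623 units. It had the widest range of the 10 genes over the 3 arrays, 3.28 on the log2 scale. Its level was 4.83-fold lower in suspension than on plates, 9.70-fold higher on re-adhesion than in suspension and 2.01-fold above the first adherent level. This last value lies just past the 2-fold line (log2 difference 1.01 ± 0.20) and did not pass it under several other settings of the processing. Krt7, a basic keratin of simple epithelia, gave 105, 43.5 and 71.6 units. Unlike the other 3 keratins, it remained below its adherent level on re-adhesion (-1.37 ± 0.24, 1.08 ± 0.25 and -0.29 ± 0.23), by little more than the technical error.

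The 4 keratins together had a median of -1.46 in suspension, 2.73 on re-adhesion and 1.20 for re-adherent against adherent cells. Because keratins mark the mesothelium, markers of mesothelial and epicardial cells were read on the same arrays. Of 11 such markers 10 were measured, and all 10 were well above background on every array. Their summed level was 23.3, 9.35 and 18.2 times the 75th percentile. For re-adherent against adherent cells 8 of the 10 were higher, 2 of them more than 2-fold (4.82% of all genes), with a median of 0.49. These 2 were the uroplakin genes Upk3b (2.10 ± 0.21) and Upk1b (1.52 ± 0.21), and Msln, which encodes mesothelin, differed by 0.97 ± 0.20. Wt1 differed by 0.12. The 2 lower markers were Aldh1a2 (-0.76) and Tbx18 (-0.38), the brightest of the list on the adherent and re-adherent arrays. Most of the summed level came from them. In suspension 7 of the 10 markers were lower and 3 higher, with a median of -0.69. Of the 10, 2 were more than 2-fold lower in that pair and 0 higher (14.7% and 17.2% of all genes). These were Tbx18 (-3.74) and Aldh1a2 (-1.44), from which the fall of the sum came. Upk1b differed by -0.86, Upk3b by -0.08 and Msln by 0.84 in that pair. Of 8 general epithelial markers, Epcam, Cdh1 and Grhl2 stayed near background on all 3 arrays, and the 5 measured had a summed level of 1.56, 0.94 and 1.38. The fall and return of this sum came from Esrp2 alone (419, 18.5 and 331 units). In suspension Cldn7 differed by -0.22, Esrp1 by -0.24, Cldn4 by 0.10 and Krtcap3 by 0.26. On re-adhesion Krtcap3 differed by -1.18. The part of mesothelial cells in the keratin differences was not tested.

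**Figure D3:**
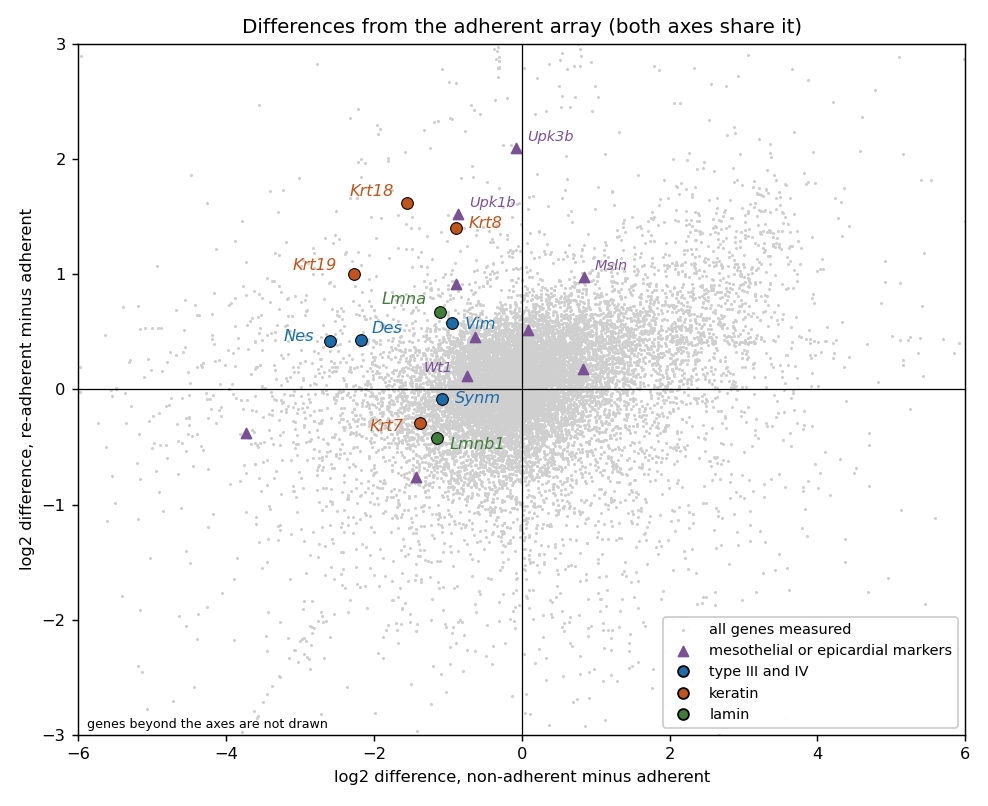
Log2 difference from the adherent array in suspension (horizontal) and after re-adhesion (vertical) for all genes measured (grey), the 10 filament and lamin genes (circles coloured by class) and 10 mesothelial or epicardial markers (triangles); each point is 1 gene, both axes share the adherent array, and points beyond the axes are not drawn. The 10 genes all lie left of 0, Krt8 and Krt18 lie near Upk1b, and Upk3b lies above them at a suspension difference near 0. The triangles of 2 markers, Aldh1a2 and Tbx18, lie below 0 on the vertical axis.

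Vim, the main filament gene of fibroblasts, gave 198548, 110496 and 246335 units, with no saturated spot. It was 1.92-fold lower in suspension, 2.86-fold higher on re-adhesion and 1.49-fold above the adherent level at the end. Its log2 differences were -0.94 ± 0.20, 1.52 ± 0.20 and 0.57 ± 0.20. Vim was thus short of the 2-fold line in suspension, as was Krt8, and 15.8% of all genes were as low or lower. Quantile normalization, which forces the same distribution on the 3 arrays, brought the suspension difference of Vim to -0.40 and that on re-adhesion to 0.67.

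Nes, known from neural stem cells and from activated muscle and stromal cells, gave 9206, 1633 and 10286 units. Its level was 6.03-fold lower in suspension and 8.08-fold higher on re-adhesion, the lowest suspension difference of the 10. Of all genes, 3.32% were as low or lower than Nes in suspension. The re-adherent level was 1.34-fold the adherent level (0.42 ± 0.20). Synm, which encodes a large protein that links filaments to adhesion sites, read close to background. Its brightest probe gave 59.1, 29.9 and 46.4 units, with differences of -1.08 ± 0.27, 1.00 ± 0.28 and -0.09 ± 0.25, so the re-adherent array was within technical error of the adherent array. On re-adhesion it was 1.995-fold higher and so just short of the 2-fold line. The 5 probes for Synm stood well above background in adherent cells for 3, on every array for 1 and on no array for 2.

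Des, the muscle intermediate filament gene, had a probe spotted 10 times on each array, which shows the noise of the spots. Over 9 unflagged spots on the adherent array the signal ran from 136 through a median of 148 to 159 units. In suspension 10 spots ran from 26.9 through 36.3 to 42.7 units, and after re-adhesion from 156 through 168 to 181 units. The spots of the non-adherent array did not overlap those of either other array, while the re-adherent and adherent ranges overlapped before scaling and not after it. The SD between spots was 0.08, 0.21 and 0.07 on the log2 scale. The differences of Des were -2.17 ± 0.25, 2.60 ± 0.25 and 0.43 ± 0.21. Its suspension signal was low enough that the background correction mattered: with normexp, a model of signal plus background, the suspension difference was -1.16.

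Because desmin is made by cardiomyocytes, smooth muscle cells and pericytes too, their markers were read beside it. Of 9 cardiomyocyte markers, Actn2, Ryr2 and Pln were above background on no array, and the 6 measured had a summed level of 1.20, 1.99 and 3.39, most of it from Tnnt2 (593, 955 and 1646 units). All 6 were higher in suspension, and on re-adhesion 4 were lower and 2 higher, with a median of -0.72. Myh6 gave 36.4, 75.6 and 26.9 units and Tnni3 gave 21.0, 70.7 and 7.36 units. The 8 pericyte and smooth muscle markers had a summed level of 53.0, 70.6 and 48.3, most of it from Mcam, which is also made by endothelial cells. In suspension 3 of the 8 were lower, among them Myh11 of smooth muscle (at least 16.3-fold) and Cspg4 (-2.05). The other 5 were higher, among them Abcc9 (at least 5.63-fold), Kcnj8 (at least 4.10-fold) and Rgs5 (0.79). The median over the 8 was 0.66. The skeletal muscle genes Myod1, Myog, Ckm and Myh4 were above background on no array. The part of these cells in the Des differences was not tested.

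**Figure D4:**
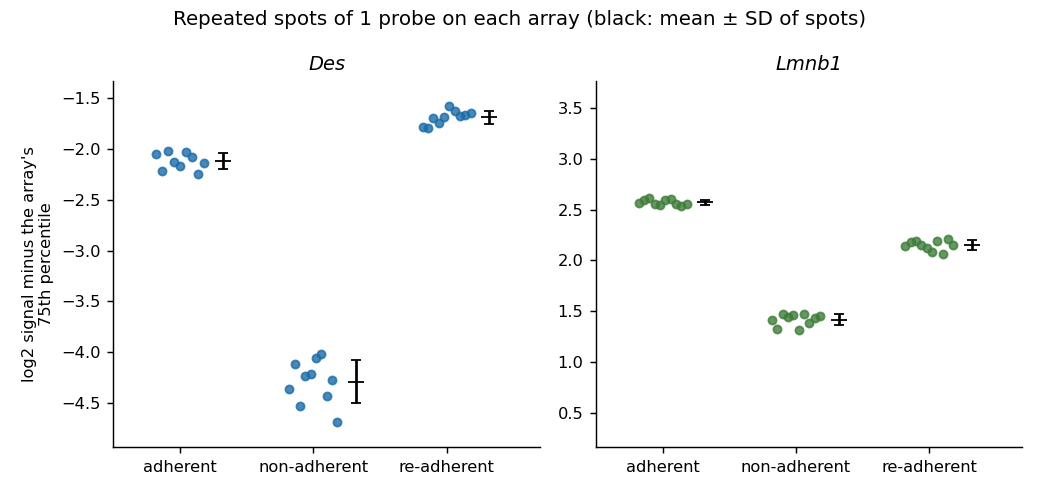
Log2 signal minus the array's 75th percentile for each repeated spot of the Des probe (9 spots for adherent cells, 10 for each other state) and of the Lmnb1 probe (10 on each), with the mean and SD over spots in black; the spots are repeats within 1 array and not biological replicates. The suspension spots of both genes lie below all spots of the other arrays, and the re-adherent spots lie above the adherent spots for Des and below them for Lmnb1.

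Lmna, whose transcripts encode lamins A and C, gave 63864, 31626 and 85016 units. The log2 differences were -1.11 ± 0.20, 1.79 ± 0.20 and 0.67 ± 0.20. It was 2.16-fold lower in suspension and 3.45-fold higher on re-adhesion, and it ended 1.60-fold above the adherent level. Lmnb1, a B-type lamin gene, took another course after re-adhesion. Its 10 spots ran from 3760 to 3953 units on the adherent array (median 3817), from 1729 to 1926 in suspension (median 1877) and from 2249 to 2503 after re-adhesion (median 2403). No spot of any array overlapped those of the other 2, with SDs of 0.03, 0.06 and 0.05 on the log2 scale. Such spots show the noise within an array and not the spread between cultures. How many other repeated probes separate in this way was not counted. The differences were -1.15 ± 0.20, 0.73 ± 0.20 and -0.42 ± 0.20, so Lmnb1 stayed 1.34-fold below its adherent level. The log2 step back up was 63.5% of the step down for Lmnb1 and 161% for Lmna.

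Because lamin B1 is known to decline in senescent cells, genes of proliferating cells were read beside it. All 10 of that list were measured, with a summed level of 186, 171 and 171. Their median difference was -0.42 in suspension, 0.17 on re-adhesion and -0.24 for re-adherent against adherent cells, and 7 of the 10 were lower in that last pair. Mki67, a marker of cycling cells, differed by 0.01 in suspension and Ccnb1, a mitotic cyclin gene, by -1.07. The part of cell division in the Lmnb1 differences was not tested.

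The spots around each gene's own spots on the array did not share these differences. Within 5 rows and columns on either side, over 37 to 67 neighbours of each spot, the median difference lay between -0.35 and 0.11 for suspension, between -0.20 and 0.33 for re-adhesion and between -0.07 and 0.14 for re-adherent against adherent cells.

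The other intermediate filament genes did not share 1 course. Of 27 further cytoplasmic genes 17 were measured, 3 of them more than 2-fold lower and 4 higher in suspension, shares near the 14.7% and 17.2% of all genes, and the median was -0.02. The lower ones included Sync, whose protein syncoilin binds desmin (501, 96.3 and 413 units; -2.48 in suspension and 2.46 on re-adhesion), and Krt222 (-1.64 and 1.33). Krt80 was 1.89 higher in suspension and Krt79 differed by -1.58 on re-adhesion. Re-adherent against adherent cells differed by 1.17 for Krt14 and by -1.16 for Bfsp1. Among the neurofilament genes, chosen for mention after their values were seen, Nefm was at least 5.22-fold lower in suspension, while Nefl was at least 4.78-fold higher, each with a probe not well above background on the dimmer array.

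All 16 genes listed for the lamina and inner nuclear membrane were measured. In suspension 13 of them were lower, with a median of -0.40, but only 2 by more than 2-fold, a share near the 14.7% of all genes. These were Emd, which encodes the lamin-binding protein emerin (-1.44, then 1.36 on re-adhesion), and Tmem201 (-1.52, then 1.28). Banf1, which encodes a chromatin-binding partner of emerin, was 1.17 higher on re-adhesion. Lmnb2, the other B-type lamin gene, differed by -0.41 in suspension, then by 0.46. Of the 6 genes of the LINC complex, which couples the lamina to the cytoskeleton, only Syne3 passed 2-fold in any pair (1.11 higher in suspension).

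Plakins and desmosome proteins anchor filaments at the cell edge. Of 17 genes 14 were measured. In suspension 4 were more than 2-fold lower and 2 higher, where 14.7% and 17.2% of all genes were. On re-adhesion 1 was lower and 5 higher by that margin, against 16.4% and 15.5% of all genes. Pkp2, which encodes a desmosomal plaque protein, gave 966, 87.8 and 1427 units (-3.56, then 4.38). Other desmosome genes were dim. Dsg2, Dsc2 and Dsc3 were well above background on no array, and Jup gave 49.0, 32.0 and 46.5 units. Dsp gave 14.3, 33.0 and 13.1 units. It was well above background in suspension only, where it was at least 1.83-fold higher than in adherent cells. Pkp1 ended above its adherent level as the 3 keratins did (-2.18, 4.18 and 2.00), as did the plakin gene Ppl (2.08) and the integrin gene Itga6 (1.08), although Itga6 was also 2.32 higher in suspension. Among 10 chaperone and turnover genes, 2 were more than 2-fold lower in suspension and 3 higher on re-adhesion. The shares of all genes were 14.7% and 15.5%. The small heat shock proteins of Cryab and Hspb1 bind desmin and vimentin filaments: Cryab differed by -3.72 and 4.29, Hspb1 by -1.82 and 2.47. Bag3, a partner of small heat shock proteins, was 1.07 higher on re-adhesion.

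For the 4 genes with the widest range, the genes with the most similar course were sought among 13475 genes well above background on every array, by the distance between their pairs of differences from the adherent array. The nearest to Krt19 were Adra2a (distance 0.12) and Hspb2 (0.19), and the nearest to Krt18 were Rnu3b1 (0.14) and Cdkn2a (0.22). Those nearest to Nes were Dusp10 (0.08) and Pkia (0.08). Me1 (0.01) and Hspb8 (0.04) were nearest to Des. The likeness rests on 3 arrays.

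The course held under other settings of the processing for most of the genes. Changes to the filter, to probe averaging, to flagged spots and to dim signals left nearly all values of the 10 genes as they were. The comparison thus rests on the scaling and background settings. Across the main and 12 other settings, all 10 differences for suspension and all 10 for re-adhesion kept a single sign. For re-adherent against adherent cells 7 of 10 did. The exceptions were Des and Nes, which came to -0.03 and -0.04 when scaled to the spike-in probes, and Synm, which ran from -0.55 to 0.16. In that pair Krt18 did not come below 1.16 and Krt8 not below 0.94, while Krt19 came down to 0.54. Lmna came down to 0.21 and Vim to 0.11, which is less than its technical error of 0.20.

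**Figure D5:**
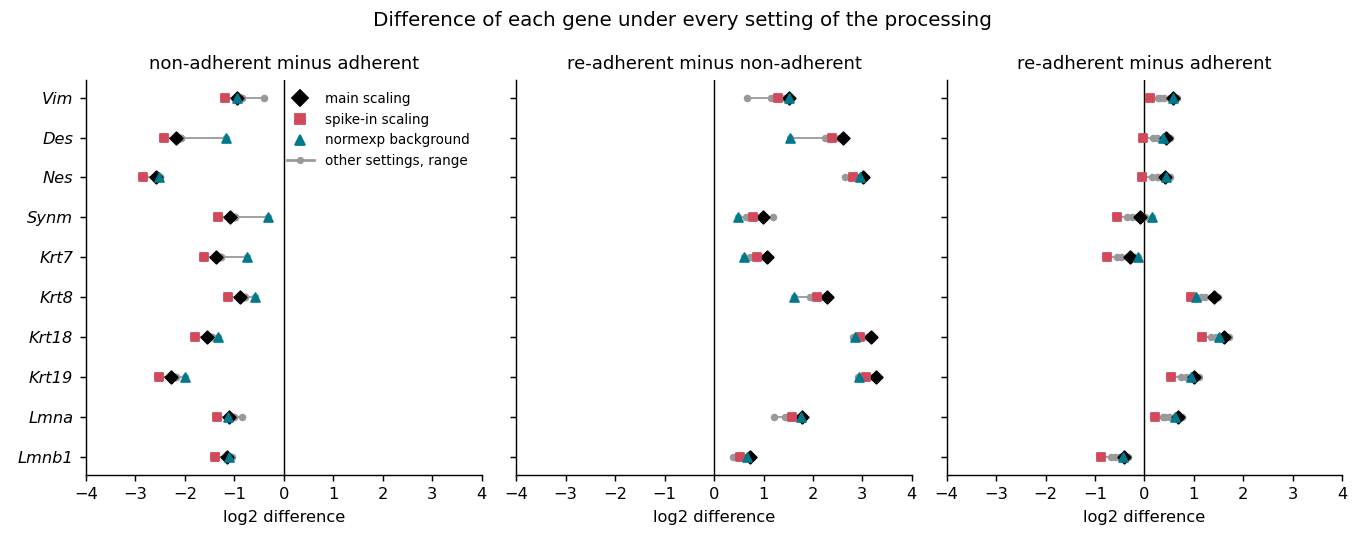
Log2 difference of each of the 10 genes in the 3 pairs of arrays under the main scaling (diamonds), scaling to spike-in probes (squares), normexp background correction (triangles) and the other settings (grey points, with a line from the lowest to the highest); 1 array per state. All values lie below 0 in the first panel and above 0 in the second, and the values of Des, Nes and Synm reach both sides of 0 in the third.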

How the data were processed

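RNA of 3 states of mouse cardiac myofibroblasts was read on 1-colour Agilent SurePrint G3 Mouse arrays, 1 per state, on the same slide and in the same scan. The authors deposited spot intensities from Feature Extraction 10.10.1.1 on a linear scale, as background-subtracted processed signal with an error and flags per spot, and a table of intensity values equal to that signal times a constant per array (1.52, 1.52 and 1.62). Their normalization and the batch of RNA preparation are not given in the sources used here.

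Of 62976 spots 59305 were not controls. Flagged spots (154, 180 and 175) were left out and 0 were saturated. From each log2 signal that of the array's 75th percentile was subtracted (647, 693 and 540 units). Spots of a probe were averaged. Of 37881 transcript names 21465 matched RefSeq (GRCm38.p6), which named 27235 of 55681 probes. The design is of an earlier assembly, so only promoter coordinates, on their own build, are given. Probes well above background on 1 or more arrays entered (14476, 14744 and 13939 of 15393 genes passed on each array), and the brightest probe stood for its gene. The 10 genes all passed on every array, and 9 had 1 probe.

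Technical errors are those of Feature Extraction, added in quadrature for a pair of arrays. The lowest signals well above background were 16.7, 14.0 and 18.3 units. Where a probe was dimmer on an array, "at least" gives the bright array over the higher of that lowest signal and its own. The number of arrays limits the precision. No test was run. The members and all lists were chosen with earlier results of these data known. Named genes were the 10 members; up to 3 genes per list and pair with the largest difference over 2-fold and above background on both arrays; the leading and the undetected markers; and the 2 most similar genes of the 4 members with the widest range. Other genes were named after their values were seen. Endothelial markers (8) had a summed level of 23.5, 37.0 and 22.2 times the 75th percentile. Fibroblast markers (8) had 700, 576 and 524, and Schwann or neural crest markers (6) 0.45, 0.79 and 0.60. Most of the endothelial sum on the adherent and re-adherent arrays came from Kdr. Of the 8 endothelial markers, 7 were lower in re-adherent than in adherent cells, 5 of them more than 2-fold (4.94% of all genes). Their median was -1.77 in that pair. Col1a2 was the largest part of the fibroblast sum. Of the 8 fibroblast markers, 4 were more than 2-fold lower in suspension and 3 higher (14.7% and 17.2% of all genes). The scanner files used held no mean signal, so normexp (offset 50) ran on the median signal. Scripts (Python 3.11.15, numpy 2.4.6, pandas 2.3.3, scipy 1.17.1) were tested on simulated data.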

Additional observations from a re-analysis of the deposited data

How the results depend on the processing

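Of 360 values of the 10 genes under 12 alternatives, 287 lay within the technical error of the main value, 73 moved further and 0 of the differences over 2-fold changed sign. The 287 include many values that could not move. All 10 genes passed on every array and 9 had 1 probe. Raising dim signals and changing the filter therefore moved none of them, probe averaging moved only Synm, and keeping flagged spots moved only Des. The 287 is thus no measure of stability. Scaling to the spike-in probes (6 used), which moved the median of all genes to -0.32, -0.14 and -0.40 for suspension, re-adhesion and re-adherent against adherent, gave medians over the 10 genes of -1.51, 1.82 and 0.040, with 1 gene more than 2-fold higher in the last pair. Without scaling, which moved the median of all genes to 0.03, -0.28 and -0.20, the medians on re-adhesion and for re-adherent against adherent were 1.68 and 0.24. On re-adhesion the median was 1.75 after quantile normalization, 1.77 in the authors' values and 1.58 after normexp, which drew dim genes most (Synm to -0.32 in suspension). The 2-fold count of re-adherent against adherent genes was 2 in 5 further settings, with Krt19 dropping under the line. At 4-fold, 3 genes were lower in suspension, 5 higher on re-adhesion and 0 higher in the last pair. Centring on the median of all genes was chosen after seeing the data. No paired analysis was possible because no state had a second array, and for the same reason no replicate could be left out. The arrays' noise limits dim probes, Synm, Krt7 and Des in suspension, most.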
